A study of Mus musculus with 4 samples.

Results

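The interferon response genes examined here were 9 genes of the type I interferon pathway: Stat2, Irf1, Irf3, Irf7, Irf9, Isg15, Ifit1, Ifit3 and Ifitm3. Their members were taken as every probe whose gene symbol in the normalized table was one of these names, which gave 16 of 45263 probes and 8 of 28842 genes. No probe carried the symbol Isg15. Expression was measured with Illumina MouseWG-6 v2.0 BeadChips in 4 mouse lenses at postnatal day 6 (P6), with 1 lens on each array and n = 2 in each group, named replicates A and B. Celf1 encodes an RNA-binding protein, and the comparison addresses which transcripts change in the lens when it is lost.

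In Celf1 cKO mice, 1 Celf1 allele is a lacZ knock-in that disrupts the gene everywhere, and the other carries a loxP-flanked exon that is removed by Pax6GFPCre, a transgene whose Cre recombinase acts in the lens lineage from the embryo onwards. Control mice are Celf1lacZKI/+, so that the disrupted allele is present in both groups and Control lenses keep a single intact copy. Both groups are on a mixed background of C57BL/6 and FVB. Cells other than lens fibers and epithelium that remain with a dissected lens are not deleted by this Cre unless they derive from its lineage. The labels do not state the sex or the litter of the mice, so that p-values measure only the spread between these lenses.

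When a cell senses foreign or misplaced nucleic acid, kinases activate the transcription factors IRF3 and IRF7, which switch on interferon genes. Secreted interferon binds a surface receptor whose Janus kinases phosphorylate STAT proteins, among them STAT2, which acts with IRF9 in the complex ISGF3. ISGF3 binds a DNA element called the interferon-stimulated response element (ISRE) near its target genes, among them the IFIT and IFITM families and Isg15. The lens has no blood vessels of its own after birth apart from a transient capillary network around it, and is made almost entirely of epithelial and fiber cells.

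The ISRE core is shown because it is what these target genes have in common in their DNA. It was searched on both strands of the RefSeq promoters (GRCm38.p6) as GAAA, any 2 bases and GAAA again, which reads TTTC, any 2 bases and TTTC on the opposite strand. They were found in 1131 of 32851 promoters (3.44%) and in those of 5 of the 9 genes, namely Stat2, Isg15, Ifit1, Ifit3 and Ifitm3. Each sequence is given 5′ to 3′ on the strand of its gene, with the matches in capitals, and overlapping matches run together. Positions relative to the start site differed, with the match 222 bases before the start for Stat2 and just after the start for Ifitm3.
Stat2, chr10:128270256-128270305, plus strand: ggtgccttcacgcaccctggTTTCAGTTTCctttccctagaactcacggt
Isg15, chr4:156200855-156200916, minus strand: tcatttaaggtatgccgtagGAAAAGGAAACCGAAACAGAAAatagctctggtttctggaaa
Ifit1, chr19:34640765-34640833, plus strand: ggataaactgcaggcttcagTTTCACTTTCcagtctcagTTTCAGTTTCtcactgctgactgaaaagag
Ifit3, chr19:34583353-34583436, plus strand: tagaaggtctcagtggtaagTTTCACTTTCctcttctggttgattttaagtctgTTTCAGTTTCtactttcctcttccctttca
Ifitm3, chr7:141010716-141010742, minus strand: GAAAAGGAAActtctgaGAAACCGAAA

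The gamma-activated site (GAS) is an element of genes induced by interferon gamma, and its letters TTCNNNGAA occurred in 8.3% of promoters and, among the 9 genes, in those of Irf1 and Ifitm3. A match in a promoter is a description of its letters and not of binding. No ISRE match was found in the promoters of Irf1, Irf3, Irf7 and Irf9.

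The arrays differed in brightness between the groups. The number of probes detected above background (detection p under 0.05) was higher for cKO A (16261) and cKO B (16925) than for Control A (14542) and Control B (14180), so brightness and genotype cannot be told apart. Celf1, the targeted gene, was reduced in the mutant (log2 change -1.44 ± 0.20, SE, limma adjusted p = 0.0109, and adjusted p = 0.0595 without Control B). Xist, the RNA of the inactive X chromosome, was detected on both cKO arrays and on neither Control array (at least 6.33-fold higher), and Y-linked Ddx3y was lower in cKO lenses (-3.12 ± 0.57, limma adjusted p = 0.0211, with unnormalized intensities of 169.9 in cKO A and 61.5 in cKO B against 460.6 and 322.0, and no longer called without Control A or without Control B), so that genotype and sex-linked transcripts cannot be told apart in any comparison here. All 12 lens markers were above the detection filter, and Crygd, a crystallin, had the highest mean log2 signal among them (15.20).

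Detection differed among the interferon response probes. Of the 16 probes, 7 were detected on 0 arrays, as were 57.9% of all probes, and 9 were detected in at least 2 samples, the condition for testing, which 35.9% of all probes met. The 7 dim probes had intensities of 35.4 to 53.7 and detection p-values of 0.05662 to 0.89637. On all 4 arrays, 5 of the 16 were detected, against 27.3% of all probes. The 9 probes that passed belonged to 5 genes, Irf1, Irf3, Irf9, Ifit3 and Ifitm3, and Stat2, Irf7, Ifit1 and Isg15 were not tested. For a signal at background, the arrays cannot tell a silent gene from one expressed below their detection limit.

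Of the 5 genes tested, 1 was called in cKO against Control, and it was elevated. Ifitm3, which encodes a membrane protein that blocks the entry of viruses from endosomes, rose by 0.60 ± 0.14 on the log2 scale (SE, limma adjusted p = 0.039). Across all 11516 genes tested, 11.7% were called, which required a Benjamini-Hochberg p below 0.05, a log2 change larger than 0.58 in either direction and an average log2 signal above 4.6, with 6.01% elevated and 5.66% reduced. Scaling moved that split, with 97.7% of the calls elevated without normalization between arrays and 24.9% with equal medians over the probes detected on all 4 arrays. The median log2 fold change was 0.12 over the 5 genes and 0.01 over all genes. Without overlap between groups were the log2 values of 3 of the 5 genes (Irf3, Irf9 and Ifitm3), against 62.3% of all genes.

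**Figure D1:**
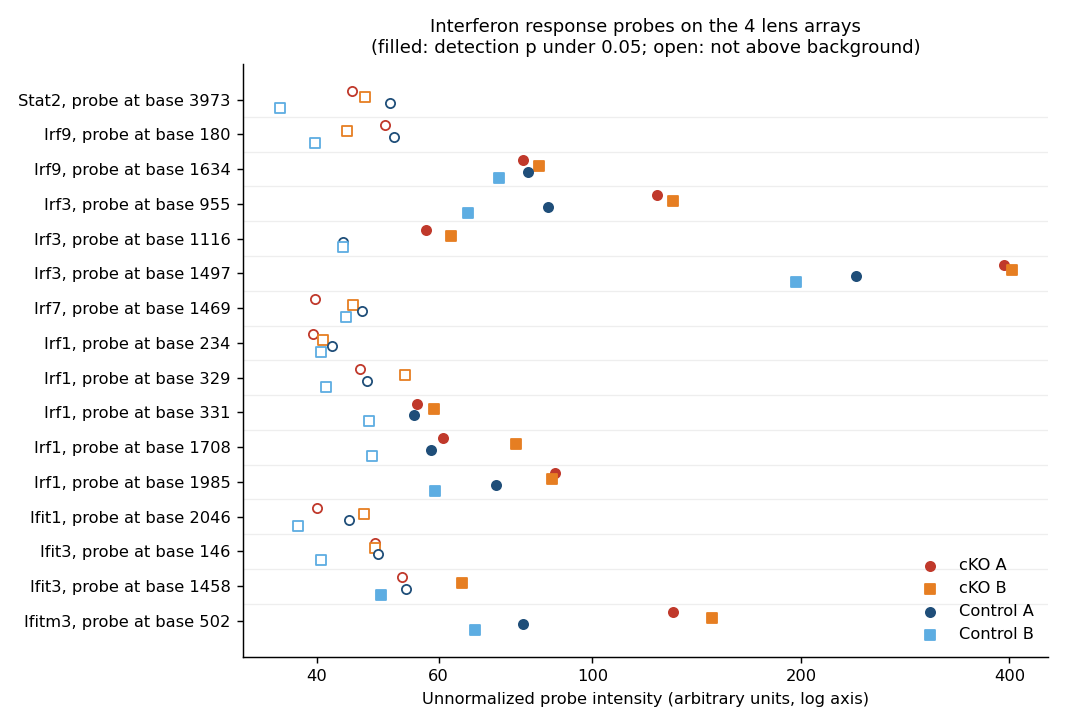
Unnormalized intensity (arbitrary units, log axis) of each of the 16 probes on the 4 arrays, with the base of the transcript where the probe begins. Filled points were detected above background and open points were not. All 4 points are filled for 5 probes and open for 7, and the highest intensities, 392.7 and 403.2, are those of an Irf3 probe on the cKO arrays.

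The transcription factors that start and carry the response were examined first. STAT2, which acts with IRF9 in ISGF3, was represented by 1 probe, with an unnormalized intensity of 45.0 in cKO A, 47.0 in cKO B, 51.1 in Control A and 35.4 in Control B. It was detected on no array, and the groups overlapped. IRF7, which amplifies interferon production once the response has begun, was also represented by 1 probe, at 39.8, 45.1, 46.5 and 44.1 in the same order, and was detected on no array either.

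IRF9 is the DNA-binding subunit of ISGF3. Its log2 signal was 5.46 in cKO A, 5.46 in cKO B, 5.87 in Control A and 6.11 in Control B. Both cKO values lay below both Control values, but the log2 fold change, -0.53 ± 0.15 (SE, 95% interval -0.89 to -0.18), did not pass the test (limma adjusted p = 0.062). The value rested on 1 of its 2 probes, which read 79.4 in cKO A, 83.6 in cKO B, 80.6 in Control A and 73.3 in Control B before normalization. On that scale the groups overlapped. Without normalization between arrays the log2 fold change was 0.08, at a median over all genes of 0.57. Relative to that median, Irf9 lay at -0.68 to -0.28 under the 16 alternatives that used all 4 lenses.

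IRF3, which is present in resting cells and is activated by phosphorylation, had 3 probes that passed. Its log2 signal was 6.42 in cKO A, 6.43 in cKO B, 6.11 in Control A and 6.11 in Control B. The groups did not overlap, but the log2 fold change of 0.31 ± 0.13 (SE, 95% interval -0.01 to 0.63) did not pass the test (limma adjusted p = 0.164). The 3 probes differed in size of change. The probe at base 1497 of the transcript had intensities of 392.7, 403.2, 240.3 and 196.9 and a log2 fold change of 0.10. The probe at base 955 had intensities of 123.8, 130.6, 86.2 and 66.2 and a log2 fold change of 0.36. The probe at base 1116 was above background on both cKO arrays (57.5 and 62.6) and on neither Control array (43.7 and 43.6), so that it passed only through the cKO group, and the difference is bounded at least 1.05-fold. None of the 3 passed the test as a single probe, where 11.3% of all probes tested were called.

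IRF1 is a transcription factor that is itself induced by interferon gamma. Its log2 signal was 5.08 in cKO A, 5.20 in cKO B, 5.09 in Control A and 4.95 in Control B, with overlapping groups and a log2 fold change of 0.12 ± 0.14 (SE, 95% interval -0.22 to 0.46, limma adjusted p = 0.608). Its 5 probes on chromosome 11 included a pair that differ by a shift of 1 base. They are printed because the shared 49 bases, in capitals, gave different calls of detection.
Irf1, probe from base 329: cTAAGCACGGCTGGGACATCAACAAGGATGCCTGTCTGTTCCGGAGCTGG
Irf1, probe from base 331: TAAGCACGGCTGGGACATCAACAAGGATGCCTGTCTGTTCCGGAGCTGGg
The first had intensities of 46.2, 53.7, 47.3 and 41.3 and was detected on 0 arrays. The second had intensities of 55.9, 59.0, 55.3 and 47.6 and was detected on 3 arrays, all but Control B. Both lie close to the lowest intensity that was detected, which ranged from 48.9 to 55.0 between arrays. The base numbers are those of the deposited table, which places the pair 2 bases apart. The probe of Irf1 with the highest intensity on each array, at base 1985, had 88.2, 87.5, 72.5 and 59.2 and a log2 fold change of 0.05.

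ISG15, IFIT and IFITM proteins are effectors of the response. ISG15 is a ubiquitin-like protein that is conjugated to other proteins during the response. A probe that the files name LOC100038882 carries the Entrez identifier of Isg15 and falls outside the rule by symbol. Its intensity was 54.9 in cKO A, 50.8 in cKO B, 48.0 in Control A and 43.3 in Control B, and it was detected in cKO A only. Ifit1, whose product binds viral RNA that lacks the cap methylation of host mRNA, had 1 probe at 40.1, 46.8, 44.5 and 37.6, detected on no array. Ifit3 had 2 probes, of which 1 was detected on no array. The other, at 53.1, 64.8, 53.9 and 49.6, was detected in cKO B and Control B. The log2 fold change of Ifit3 was 0.02 ± 0.17 (SE, 95% interval -0.39 to 0.43, limma adjusted p = 0.957), and its direction turned under 3 of the 14 alternatives that tested it with all lenses.

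Ifitm3 had 1 probe, in the deposited table on chromosome 7 of the minus strand, in 2 segments from 148195585 to 148195634 (the build is not named). Its unnormalized intensity was 130.9 in cKO A, 148.7 in cKO B, 79.5 in Control A and 67.7 in Control B, and it was detected on all 4 arrays. Both cKO lenses lay above both Control lenses. Raw intensities were higher on both cKO arrays for this probe, for 3 of Irf1 and for 3 of Irf3, and likewise for 75.8% of all probes that passed. After normalization the log2 signal of Ifitm3 was 6.41, 6.52, 5.83 and 5.90, a fold of 1.52 (95% interval of the log2 fold change 0.27 to 0.93). The change lay close to the fold threshold, and the call was lost on leaving out any lens. A fit without 1 lens compares a single lens with 2, takes its spread from the group of 2 and across genes, and assumes that the single lens varies alike, as in every such fit here. In those fits the limma adjusted p became 0.0716 (Control A), 0.0985 (Control B), 0.137 (cKO A) or 0.255 (cKO B), at log2 fold changes of 0.53 to 0.65. The call was kept under 8 of 16 alternatives with all lenses, where the change relative to the median of all genes was 0.40 to 0.73. Of its relatives in the same family, Ifitm2 (log2 fold change -0.12 ± 0.14, limma adjusted p = 0.584) and Ifitm1 (-0.36 ± 0.17, adjusted p = 0.199) were not called, and the difference between the family members was not tested.

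**Figure D2:**
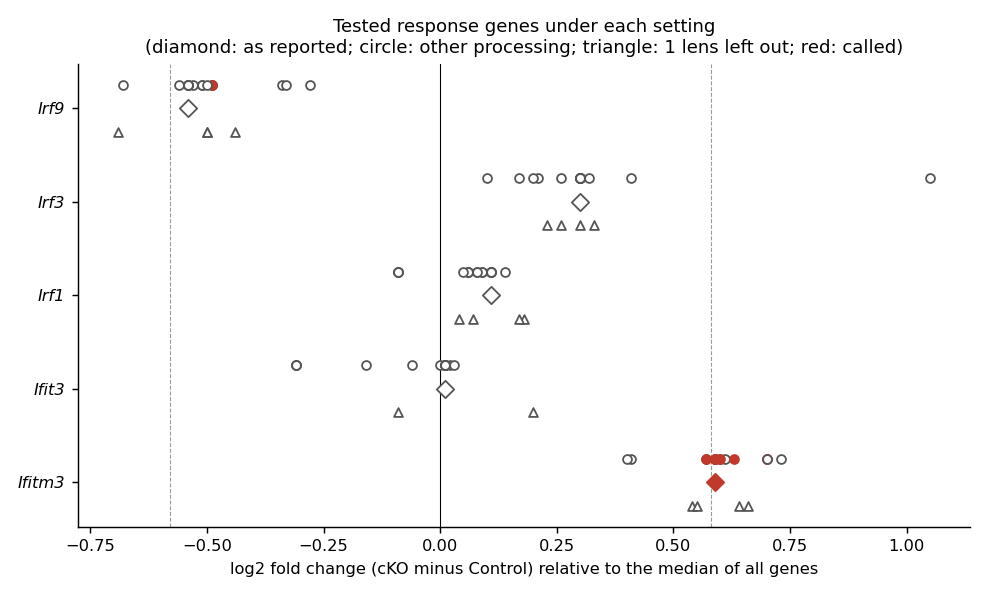
Log2 fold change (cKO minus Control) of the 5 tested response genes relative to the median of all genes, as reported (diamonds), under other processing with all lenses (circles) and with 1 lens left out (triangles). Red marks a call, and dashed lines stand at the fold threshold of 0.58. Ifitm3 stays between 0.40 and 0.73 under the other processing, Irf9 below 0, and Irf3 spans 0.10 to 1.05.

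The other genes of the pathway were then described by role, from 10 lists of receptors, kinases, sensors and targets. Of the 137 listed genes with a probe, 73 were below the detection filter, as were 17326 of all 28842 genes, and 64 were tested. In the cKO group 4 of the 64 were higher and 5 lower by the same thresholds, together 14.1%, against 11.7% of all genes. Their median log2 fold change was -0.08, and 27 of the 64 had a positive value.

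Of the interferon ligands, 2 of 11 were tested and neither was called (Ifna1, the one of higher signal, had a log2 fold change of -0.13 ± 0.20), while Ifnb1 and Ifng were below the filter. Of the receptor chains, Ifnar2, Ifngr1 and Ifngr2 were tested and none was called. Ifngr1, a chain of the interferon gamma receptor, had the highest mean log2 signal of them (log2 fold change -0.15 ± 0.21, limma adjusted p = 0.658). Of the 7 tested genes of JAK-STAT signaling, Stat5a was called, reduced by -0.62 ± 0.14 on the log2 scale (limma adjusted p = 0.0383). STAT5A mainly carries the signals of cytokines such as prolactin and growth hormone, and its probes gave unlike log2 fold changes of -0.22 and -1.03. The call of Stat5a was lost with any 1 of the 4 lenses left out (adjusted p = 0.0767 to 0.229) and under 7 of 16 alternatives, with values of -0.07 without normalization and -0.11 with the same median on each array. Jak1, the kinase shared by the interferon receptors, had a log2 fold change of -0.28 ± 0.21 (adjusted p = 0.406).

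None of the 11 tested negative regulators was called. Ptpn11, which encodes the phosphatase SHP2, had the highest signal among them, with a log2 fold change of -0.54 ± 0.14 (limma adjusted p = 0.0479) that did not reach the fold threshold. Among 5 further genes of the IRF group, 2 were called, against 11.7% of all genes. They moved in opposite directions, Irf2bpl (0.72 ± 0.16, limma adjusted p = 0.0355) and Irf2bp1 (-0.59 ± 0.14, adjusted p = 0.045). Both encode binding partners or relatives of binding partners of IRF2, and IRF2 itself was not called (-0.35 ± 0.14, adjusted p = 0.142). Without cKO A, cKO B or Control B neither was called, and Irf2bp1 was lost without Control A as well. The call of Irf2bpl was kept under 10 of 16 alternatives with all lenses, and that of Irf2bp1 under only 7. The unnormalized intensity of Irf2bp1 was higher in both cKO lenses (383.2 and 405.0) than in both Control lenses (350.1 and 308.2), and its log2 fold change turned to 0.28 without normalization and 0.24 with the same median on each array, where the medians of all genes were 0.57 and 0.53.

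Among the sensors of nucleic acid and their adaptors, 3 of 11 tested genes were called, against 11.7% of all genes. Trex1, a DNase that degrades cytosolic DNA and so limits its sensing, had log2 signals of 7.63 in cKO A, 6.97 in cKO B, 10.13 in Control A and 10.19 in Control B. Both Control lenses lay far above both cKO lenses, and Trex1 was reduced (log2 change -2.86 ± 0.22, SE, limma adjusted p = 0.00246). The raw intensities showed the same direction, with 371.5 and 269.6 against 1741.7 and 1475.9 for the brighter probe and 202.4 and 142.3 against 525.0 and 396.8 for the other. Trex1 was called in 4 of the 4 fits with a lens left out, each with a single lens in 1 group, and under 14 of 16 alternatives with all lenses, the exceptions being the deposited normalized table (adjusted p = 0.0572) and the absence of a detection filter (adjusted p = 0.0502). In the annotation Trex1 overlaps a readthrough transcript with its neighbor Atrip, which probes in Trex1 may share.

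In the same list, Traf3, an adaptor and ubiquitin ligase that links sensors to the kinase TBK1, was elevated (0.72 ± 0.15, limma adjusted p = 0.0285). Zbp1, a sensor of left-handed nucleic acid, was reduced (-0.67 ± 0.14, limma adjusted p = 0.0291). Its unnormalized intensities of 89.7, 90.3, 97.2 and 80.6 overlapped between groups. The log2 fold change of Zbp1 was -0.01 without normalization and -0.05 with the same median on each array, and its call was lost under 7 of 16 alternatives, that of Traf3 under 4. The calls of Traf3 and Zbp1 were lost with any 1 of the 4 lenses left out. Tbk1, the kinase that phosphorylates IRF3, had the highest signal of the genes not called, with a log2 fold change of 0.03 ± 0.15 (adjusted p = 0.895).

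The families of the effector genes followed. Of 10 further IFIT and IFITM genes, 3 were tested (Ifit2, Ifitm1 and Ifitm2) and none was called. Ifitm2 had the highest mean log2 signal of them, 10.08. Of 5 enzymes that attach or remove ISG15, 4 were tested and none was called, with Trim25, the one of highest signal, at 0.60 ± 0.20 (limma adjusted p = 0.0966).

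Of 38 other antiviral effectors, 25 were below the filter, including every listed Oas gene and both Mx genes, which are classical targets of interferon. Among the 13 tested, 2 were elevated and 1 was reduced, where 11.7% of all genes were called. Daxx, a repressor of transcription, had the highest signal of those not called (6.95, log2 fold change -0.09 ± 0.15, limma adjusted p = 0.696). Rsad2 encodes viperin, an enzyme that makes a chain-terminating nucleotide. Its intensity was 71.9 in cKO A, 58.1 in cKO B, 196.3 in Control A and 137.7 in Control B, so that the groups did not overlap although the Control arrays were the dimmer ones. Rsad2 was reduced (log2 change -2.60 ± 0.21, SE, limma adjusted p = 0.00286) and was called in 4 of the 4 fits with a lens left out and under 15 of 16 alternatives with all lenses, the exception being the deposited normalized table (adjusted p = 0.0625). Its promoter holds an ISRE match, in capitals, 120 bases before the start, and is shown because Rsad2 moved against Ifitm3, which also holds the element.
Rsad2, chr12:26456543-26456592, minus strand: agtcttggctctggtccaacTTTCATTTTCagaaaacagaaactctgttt
The neighboring gene Cmpk2, another interferon target, was detected on 0 arrays. The promoter of B2m, an elevated gene described below, also holds an ISRE match, 139 bases before the start.

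Ifi30, a thiol reductase of lysosomes that prepares antigens, was elevated by 1.08 ± 0.17 on the log2 scale (limma adjusted p = 0.0162), with probes at 1.52 and 0.63. The call was lost without cKO B and without Control B, at log2 fold changes of 0.84 and 1.22. With all lenses it was lost under 3 of 16 alternatives. These were the deposited normalized table (1.37, limma adjusted p = 0.0816), no detection filter (1.08, adjusted p = 0.0739) and the test against the fold threshold (1.08, adjusted p = 0.43). The change was smaller, though still called, with an offset of 50 (0.65) and without background correction (0.67). Samhd1, which depletes deoxynucleotides, was elevated by 0.68 ± 0.16 (limma adjusted p = 0.0376), and its call was lost with any 1 lens left out and under 7 of 16 alternatives with all lenses, with values down to 0.23 without a detection filter. Of the 6 tested genes induced mainly by interferon gamma, none was called, and Irgm1, an immunity-related GTPase, had the highest signal (10.78) and a log2 fold change of -0.46 ± 0.17 (adjusted p = 0.116).

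Genes of class I antigen presentation are also targets of interferon, and 3 of the 11 tested were called, against 11.7% of all genes, with a median log2 fold change of 0.05 over the 11. B2m, the light chain of class I molecules, rose by 2.73 ± 0.13 on the log2 scale (limma adjusted p = 9.68e-04) and H2-D1, a heavy chain, by 2.33 ± 0.25 (adjusted p = 0.00577), while Nlrc5, the activator of class I genes, was called lower (-0.76 ± 0.16, adjusted p = 0.029). The unnormalized intensities of Nlrc5 overlapped (329.9 and 311.0 in cKO lenses, 357.8 and 248.4 in Control lenses), and its log2 fold change turned to 0.11 without normalization and 0.07 with the same median on each array. B2m was called in 4 of the 4 fits with a lens left out, in which 1 group is a single lens, H2-D1 was lost without Control B (adjusted p = 0.052), with the deposited normalized table (0.0742) and without a detection filter (0.0669, log2 fold change 1.56), and Nlrc5 was lost with any 1 left out. Of the 2 averaged probes of H2-D1, 1 was above background only on the cKO arrays (206.6 and 138.8 against 53.0 and 40.8) and passed only through that group, while the other was detected on all 4 arrays (464.6 and 349.6 against 88.8 and 61.7). The 2 averaged probes of B2m overlap, from 121842516 and 121842517 on chromosome 2. They read 1032.9 and 1075.4 in cKO lenses against 133.5 and 119.6, and 1026.7 and 1205.7 against 130.2 and 96.2. Another B2m probe was detected on 0 arrays. The log2 fold change of B2m was 1.80 without a detection filter and 3.53 without normalization between arrays (all-gene median 0.57). The heavy chain H2-K1 was not called (0.17 ± 0.18, adjusted p = 0.553). Heavy chains are alike in sequence, so that probes of H2-D1 may also bind other class I transcripts.

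**Figure D3:**
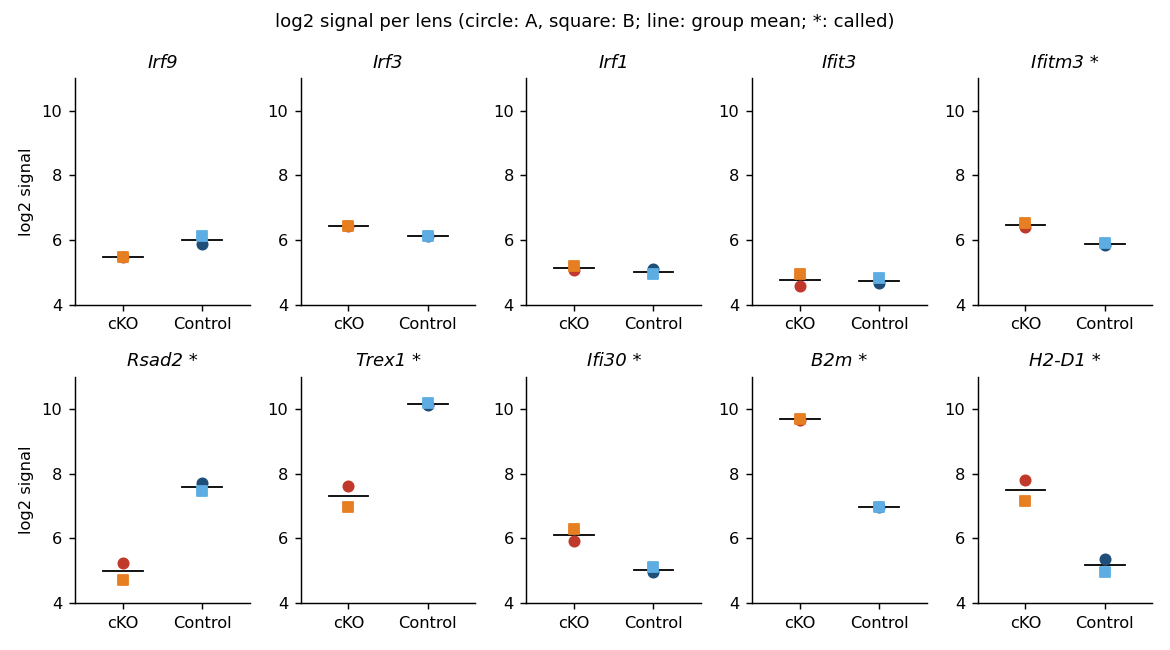
Log2 signal in each lens (circle A, square B) with the group mean, for the 5 tested response genes above and 5 called genes of the pathway or of class I presentation below. The response genes differ by at most 0.60 between group means, whereas Rsad2 and Trex1 are lower and B2m and H2-D1 higher in cKO lenses by more than 2.

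Genes with an ISRE match in the promoter were counted across the array as background for these results. Of 638 such genes with a probe, 274 (42.9%) were tested, against 50.2% of all genes with a promoter sequence. Of the 274, 20 were elevated and 21 were reduced, together 15%, against 12% of all 8072 tested genes with a promoter. Their median log2 fold change was -0.04, against 0.01. For the GAS letters, 39 of 661 tested genes were elevated and 34 were reduced, together 11%, against 12% of all tested genes with a promoter. Their median log2 fold change was 0.01, against 0.01.

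Markers of other cells that a dissected lens could hold were measured beside these genes, since in whole lenses fewer cells of a type and less RNA per cell cannot be told apart. Of 18 macrophage and leukocyte markers, 7 were tested, with 4 positive log2 fold changes and 3 negative ones (Csf1r, Aif1 and Cd3e, at -0.11 to -0.07). Of the genes with positive values, only Nkg7 was detected in Control lenses. Of the 7, 2 were called, against 11.7% of all genes. Cd68 (at least 1.27-fold higher in the mutant, adjusted p = 0.0381 by limma) and C1qb (at least 1.23-fold, adjusted p = 0.0222) were detected on both cKO arrays and on 0 Control arrays, so that they passed the filter only through the cKO group. Cd68 was no longer called without Control A or without Control B, and C1qb without Control B, and neither was tested with a cKO lens left out. C1qc, which also passed only through the cKO group, was not called (at least 1.15-fold higher). Nkg7, which had the highest signal of the list (7.16), was not called either, at a log2 fold change of 0.57. The defining markers Ptprc, Adgre1, Cx3cr1, Lyz2 and Tyrobp were below the filter. The number of markers of this list detected was 7 and 11 in cKO lenses against 3 and 5 in Control lenses. The summed unnormalized intensity of the list was 1584.6 and 1766.5 against 1438.7 and 1296.0. Over all probes, 16261 and 16925 were detected on the cKO arrays against 14542 and 14180, and 75.8% of the probes that passed were brighter in both cKO lenses. Of 9 vessel markers, 8 were tested and 2 were elevated, Emcn (1.15 ± 0.20, limma adjusted p = 0.0185) and Flt1 (0.71 ± 0.14, adjusted p = 0.0255), each called in only 1 of 4 fits with a lens left out, that without Control A. Of the other 6, Esam (0.73), Cdh5 (0.60) and Cldn5, the one of highest signal (0.53), had positive values, and Pecam1 (-0.06), Tek (-0.27) and Kdr (-0.61) had negative values, with a median of 0.56 over the 8. The summed unnormalized intensity of the vessel list was 1419.6 and 1469.1 in cKO lenses against 972.6 and 782.2, on arrays where 75.8% of the probes that passed were brighter in both cKO lenses. Of 3 tested blood markers, Slc4a1 was reduced (-1.05 ± 0.15, limma adjusted p = 0.0119) but not called without cKO B or without Control B, and Hba-a1, the one of highest signal, was not called (-0.08 ± 0.38). All 12 lens markers had negative values (median -0.31 on the log2 scale), and 2 were called, Bfsp2 and Foxe3, each in only 1 of 4 fits with a lens left out, that without Control A. Of all genes 11.7% were called, beside these 2 of 12 lens markers. Crygd (-0.01), Crybb1 (-0.05) and Mip (-0.07) changed little, and reached 0.13, 0.14 and 0.17 under other processing with all lenses. The summed unnormalized intensity of the lens list overlapped between groups (292570.7 and 294302.1 in cKO lenses, 301959.9 and 243033.9 in Control lenses). The part of the cell types of these lists in the values of Ifitm3, Ifi30 and B2m was not tested.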

How the data were processed

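The authors deposited unnormalized intensity values and intensity values scaled by the rank-invariant method, each the mean over the beads of a probe, with a deposited detection p-value that ranks the probe among negative control beads and a deposited standard error over beads (in units of signal, a median of 4.36% to 7.26% of the intensity of detected probes). RNA was extracted with a column kit and labelled with biotin. Of 45281 probes, 18 lines with shifted cells were left out.

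The unnormalized intensity was background-corrected and quantile normalized in R 4.3.3 by the neqc function (limma 3.58.1), with an offset of 16 and with negative controls estimated from detection p-values. An offset of this size shrinks the changes of dim probes. Probes with a detection p under 0.05 in at least 2 samples were kept (16262), and probes of 1 gene were averaged on the log2 scale. Groups were compared with lmFit and eBayes, two-sided, with Benjamini-Hochberg adjustment over 11516 genes. The fold and signal thresholds follow the study, which used edgeR, a model of counts that was not applied to intensities. Probes were named through RefSeq (GRCm38.p6) by Entrez identifier (29586), accession (2759), symbol (2214) or older symbol (2370), and 8334 kept the file's name. Motif counts used the RefSeq promoters. The small number of arrays limits the precision.

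The 9 genes, the role lists and the marker lists were chosen with earlier results of these data known, and give no independent support. Named were all 9 genes, every called gene of a role list (at most 4 in each direction), and the tested gene of highest signal that was not called, and, for markers, counts, ranges and the brightest gene. Named outside this rule, after their values were seen, were Cmpk2, Ifitm1, further marker genes, the class I genes and genes below the filter. The alternatives changed the table, background correction, scaling, filters, probe rule, variance model, fold test and pairing, and left out each lens. The fit was tested on simulated data.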

Additional observations from a re-analysis of the deposited data

How the results depend on the processing

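The number of called genes was 7 with the deposited normalized table, 820 with an offset of 50, 5789 without normalization between arrays (97.7% of them higher, all-gene median 0.57), 5417 with the same median on each array (97.3% higher, median 0.53), 2692 with the same median over probes detected on all arrays (24.9% higher, median -0.19), 155 without a detection filter and 82 when tested against the fold threshold, compared with 1344. With 1 lens left out, which leaves a single lens in 1 group and assumes that it varies like the others, it was 113 to 1310 (113 when Control B was left out, 169 for cKO B, 514 for cKO A and 1310 for Control A). Of the 9 response genes, 0 were called with the deposited table (also with 16 added), no background correction, an offset of 50, cyclic loess, no detection filter, the test against the fold threshold, and each lens left out (0 to 0). Without normalization and with the same median, 2 were called, Irf3 and Ifitm3, and with the median over detected probes 1 was called, Irf9 in place of Ifitm3. Ifit3 turned to -0.19 with the deposited table, -0.09 with 16 added, -0.50 with the median over detected probes and was tested in 2 of the 4 fits with a lens left out, at -0.07 without Control A and 0.18 without cKO A (range -0.07 to 0.18), and Irf1 turned to -0.28 with the median over detected probes. Without normalization Irf9 was 0.08, Irf2bp1 0.28 and Nlrc5 0.11, and with the same median 0.04, 0.24 and 0.07, all below the all-gene median there. The replicate letter as a block gave 1751 called genes and 1 called response gene, and lenses of the same letter did not deviate together (correlation -0.011), so that the letters were not taken as pairs. A slide block was not run because no slide is given in the tables used. The cause of these shifts was not tested. A probe near the detection limit can pass or fail the filter on a small difference in intensity.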
